A study of Homo sapiens with 4 samples.

Results

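The binding sites of TRIM24 and TRIM28 were compared in LNCaP prostate cancer cells kept without androgen. The members are all sites on chromosomes 1 to 22 and X in the lists of the ethanol samples, 4954 for HA-TRIM24 and 57690 for TRIM28, or 62644 of the 107370 sites listed in the 4 samples of the series. A TRIM24 site and a TRIM28 site were called shared when they had at least 1 bp in common. This gave 1773 TRIM24-only sites, 3181 shared sites in each list and 54509 TRIM28-only sites.

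LNCaP is an androgen-sensitive line, and the labels give its genotype as WT. The cells of both samples were held for 3 days in 5% charcoal-stripped serum, which is depleted of steroid hormones, and then given ethanol, the vehicle, for 16 h. TRIM24 was pulled down through an HA tag in cells that stably express HA-TRIM24, so the mapped protein is the introduced one, and TRIM28 was pulled down with an antibody to the protein itself. The labels name tagged cells for the HA samples only, while the description in the study names them for both proteins. The other samples of the series, treated in the same way but with 10 nM R1881, a synthetic androgen, serve below as a second view of the same sites. Each protein and treatment has 1 library and no input library was used in the calling, so no test between the proteins could be made. Intervals in parentheses are Wilson 95% intervals, and they cover the counting of sites only, not the spread between cultures. Site lists hold no marker of cell identity, so the line could not be checked from them.

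TRIM24 and TRIM28 belong to the same family of chromatin regulators. TRIM28, also called KAP1, is the corepressor that KRAB zinc-finger proteins bring to DNA, where it gathers the histone methyltransferase SETDB1 and HP1 proteins. It is best known for silencing repeats and for its sites on the zinc-finger genes themselves. TRIM24 reads the histone tail through a PHD finger and a bromodomain and acts as a coregulator of nuclear receptors.

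Sequences were read from GRCh37, the assembly of the files (hg19), at the strongest site of each group with a given motif in the 200 bp around its centre. This window is wider than the sites (155 bp for TRIM24, 165 bp for TRIM28), and the shared YY1 match lies just outside its site. Those at GFY, a promoter element, and at YY1, CTCF, the androgen response element (ARE) and the forkhead factor FOXA1 are shown, because the groups differed most in the first 3 and the other 2 belong to the factors of androgen signalling. Capitals mark the match, read 5′ to 3′ on the strand of the match. GFY was searched as ACTACAATTCCC and YY1 as CAAGATGGCGGC, each with at most 1 mismatch.
GFY, TRIM24-only, TCEA2 promoter, chr20:62694383-62694412, plus strand: tgggtcaggACTACACTTCCCaggaggctg
GFY, shared, TRAPPC3 promoter, chr1:36615217-36615246, plus strand: acacagtcaACTACAACTCCCggagtgctc
GFY, TRIM28-only, DNAJC17 promoter, chr15:41099658-41099687, plus strand: cggattcgtACTACAACTCCCaagagtcta
YY1, TRIM24-only, CXXC1 promoter, chr18:47814261-47814290, minus strand: ctctactgaCAAGGTGGCGGCgccctcggg
YY1, shared, nearest gene DGCR6, chr22:18879914-18879943, minus strand: gcagtgaacCAAGATGGCGCCattgcattc
YY1, TRIM28-only, nearest gene IER5L, chr9:131962715-131962744, plus strand: tcatggtcaCAAGATGGCTGCggcacctcc
CTCF, TRIM24-only, intron, nearest gene ADAMTSL3, chr15:84228296-84228325, plus strand: gctaaCTGGTACCCTCTAGTGGCCAgaagt
CTCF, shared, PRMT5 promoter, chr14:23398891-23398920, plus strand: gagaaACAGTGCCATCTCAGGGCCAgtggc
CTCF, TRIM28-only, nearest gene GOLGA6L4, chr15:84961644-84961673, plus strand: gttcaACAGTGACACCTTGTGGCAAtgagc
ARE, TRIM24-only, ATP13A1 promoter, chr19:19774583-19774612, minus strand: cctgccgGGGCCAGCCTGTTCTGttgccct
ARE, shared, PHAX promoter, chr5:125936530-125936559, plus strand: ggccgctGGGACAGGCTGGCCTCcgcgcgg
ARE, TRIM28-only, intron, nearest gene SLC41A3, chr3:125747144-125747173, minus strand: gggacatGGGACAGAGTGTCCTGaggctgt
FOXA1, TRIM24-only, pericentromere, chr1:121484035-121484064, minus strand: tctagcataaAAAGTAAACAgaagcattct
FOXA1, shared, intron, nearest gene SDK2, chr17:71423521-71423550, minus strand: aaacaggcacTAAGTAAACAgatgggcatg
FOXA1, TRIM28-only, intron, nearest gene DESI2, chr1:244737164-244737193, minus strand: attctgtttcTAAGTAAACAttttacttat

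The 2 libraries were unlike in depth and in yield. The TRIM24 library held 11606880 tags and the TRIM28 library 25145171, 2.17 times as many, whereas the TRIM28 list was 11.6 times as long. Sites took up 1.36% of the TRIM24 tags and 4.95% of the TRIM28 tags, and the sites covered 0.768 Mb and 9.52 Mb. Site strength is given as normalized tags, the authors' count of tags at a site per 10000000 tags of its library. A site needed 9 tags in the TRIM24 library and 12 in the TRIM28 library, equal to 7.75 and 4.77 normalized tags, so the TRIM28 list reached weaker binding. The deposited counts do not keep to these minimums exactly, since the lowest are 6.0 for TRIM24 and 4.0 for TRIM28, and 4752 of the 4954 TRIM24 sites have at least 7.75 normalized tags. Depth, antibody and protein cannot be told apart with 1 library each.

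Most TRIM24 sites lay on a TRIM28 site, while few TRIM28 sites lay on a TRIM24 site. The shared sites were 64.2% of the TRIM24 list (62.9 to 65.5) and 5.51% of the TRIM28 list (5.33 to 5.7). Shared pairs were close, with a median of 36 bp between centres, and 2147 pairs had at least 100 bp in common against 48 pairs with at most 10 bp. The TRIM24-only group was less separate from TRIM28 than its name implies. Of its 1773 sites, 557 had a TRIM28 centre within 500 bp and 181 had one within 200 bp, and the median distance to the nearest TRIM28 centre was 2460 bp.

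The size of the overlap followed the strength asked of a site. When both lists were held to the 7.75 normalized tags that 9 TRIM24 tags are worth, 42.2% of TRIM24 sites and 12.5% of TRIM28 sites were shared. When the 4954 strongest TRIM28 sites were set against the 4954 TRIM24 sites, 21.6% of each list was shared. Thus 1070 of the 3181 shared sites were made by the strongest TRIM28 sites, and the rest by weaker ones.

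Strength separated shared from unshared sites for TRIM28 but hardly for TRIM24. TRIM28 sites had a median of 9.1 normalized tags where shared (interquartile range 6.8 to 12.3) and 6.4 where TRIM28-only (5.2 to 8.0), a ratio of 1.42, or 1.36 outside pericentromeres. TRIM24 sites had a median of 10.3 normalized tags in both groups, with interquartile ranges of 8.6 to 14.6 where shared and 8.6 to 12.9 where TRIM24-only. On the fold over the surrounding 10 kb, a second measure of strength in the files, the ratio of the shared to the unshared median was 1.18 for TRIM28 and 1.11 for TRIM24.

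**Figure D1:**
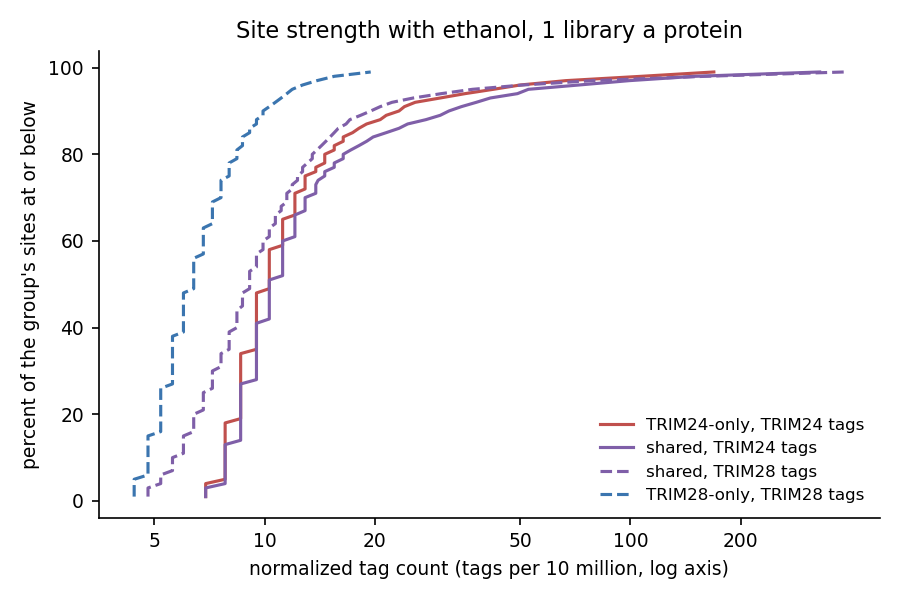
Cumulative percent of sites (vertical axis) against normalized tag count on a log axis (horizontal), for the TRIM24 tags (solid) and TRIM28 tags (dashed) of each group. The TRIM28-only curve lies left of the shared TRIM28 curve, with medians of 6.4 and 9.1, while both TRIM24 curves have a median of 10.3.

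Each list was ordered by strength and cut into 10 equal bins. Sites of equal count were ordered by position, so neighbouring bins can hold the same count. The TRIM28 list went from 1.09% shared in its weakest bin to 20.2% in its strongest. The TRIM24 list went from 58.9% (54.5 to 63.1) to 73.9%, with 56.2% to 67.9% in the bins between and no steady climb. The strongest TRIM24 bin differed in kind, since 37% of its sites were pericentromeric and 29.1% lay in promoters.

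**Figure D2:**
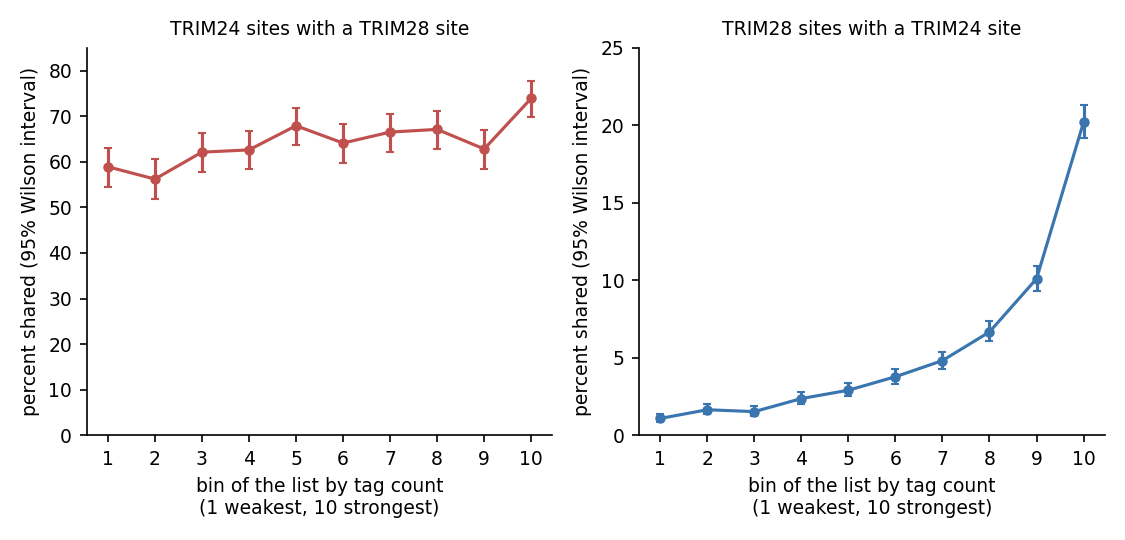
Percent of sites shared (vertical axis, bars are Wilson 95% intervals) in 10 equal bins of the TRIM24 list (left) and the TRIM28 list (right), ordered from weakest to strongest by normalized tag count. The TRIM28 share climbs from 1.09% to 20.2%. The TRIM24 share goes from 58.9% to 73.9% without a steady climb, with 56.2% to 67.9% in the bins between. The vertical axes differ.

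At shared sites the strengths of both proteins went together weakly. Spearman's rho of the normalized tag counts over 3181 pairs was 0.37, and 0.27 over the 2842 pairs outside pericentromeres. These pairs share the sequence under them and were all called in both libraries, and the values are given as a description. TRIM24 had the higher normalized count in 2166 pairs (68.1%), with a median log2 ratio of 0.32. The minimum for a listed site differed, 7.75 normalized tags for TRIM24 and 4.77 for TRIM28. A pair could thus hold a weaker TRIM28 than TRIM24 count, and the part of these minimums in the ratio was not tested.

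The pericentromeres held the extremes of both lists. Here they are the sequence within 2 Mb of the longest run of unread bases of a chromosome, so the name goes by distance only. Sequence around centromeres is rich in satellite repeats, where reads are hard to place, but the repeat content of these regions was not computed. They held 550 TRIM24 sites (11.1%) with 47.2% of the tags in TRIM24 sites, and 2026 TRIM28 sites (3.51%) with 16.1% of the tags. The strongest shared site, at chr1:121485220-121485374, had 8284.7 TRIM24 tags and 13280.1 TRIM28 tags. The strongest TRIM24-only site lay close by at chr1:121484029-121484183 with 2069.5 tags. The strongest TRIM28-only site, at chr10:42398560-42398724, had 971.6 tags. Without an input library, the part of these counts that is due to repeats was not tested. In pericentromeres 61.6% of TRIM24 sites were shared, close to the 64.5% elsewhere, whereas 16.7% of TRIM28 sites were shared there against 5.11% elsewhere.

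TRIM24 sites, shared or not, lay in promoters more often than TRIM28-only sites. A promoter is the 2 kb on either side of the start (TSS) of any annotated transcript. Site centres fell there for 50.1% of shared sites (48.4 to 51.8), 42.9% of TRIM24-only sites (40.6 to 45.2) and 32.2% of TRIM28-only sites (31.8 to 32.6), against 13.4% of the 200 bp tiles of the genome. Outside pericentromeres the shares were 54.4%, 47.2% and 32.4%. Introns held 22.6%, 27.8% and 38.6% of the groups in the same order, and intergenic sequence held 25.6%, 27.7% and 26.3%. Among the stronger 50% of each group the TRIM24-only share was 36.3% and the TRIM28-only share 35.7%, so these 2 groups differed little there. With centres up to 500 bp apart counted as shared, the TRIM24-only share was 30.6%, below the 31.6% of the TRIM28-only sites, so the order of those groups also depends on how near a TRIM28 site may be.

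**Figure D3:**
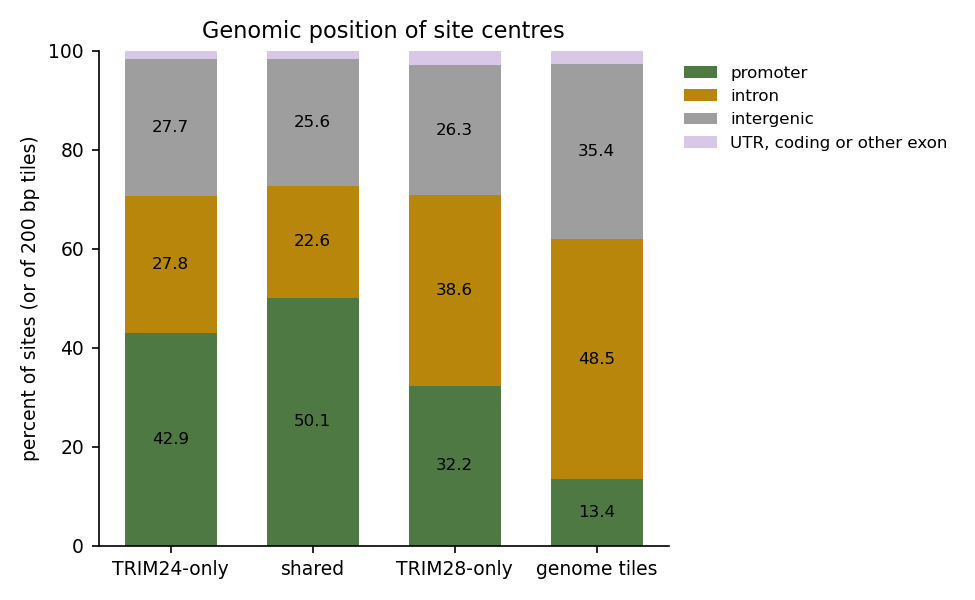
Percent of site centres (vertical axis) in promoters, introns, intergenic sequence and exons for each group and for 200 bp tiles of the genome. Promoters take 42.9%, 50.1% and 32.2% of the TRIM24-only, shared and TRIM28-only sites and 13.4% of the tiles.

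Seen from the lists, 67.7% of TRIM24 promoter sites were shared (65.8 to 69.6) and 61.0% of those outside promoters (59.1 to 62.9). Of the TRIM28 sites, 8.34% were shared in promoters, 5.37% in intergenic sequence and 3.29% in introns.

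Sites close to a protein-coding start sat almost on it. Centres within 2 kb of a protein-coding TSS made up 37.9% of shared, 30.6% of TRIM24-only and 22.4% of TRIM28-only sites. Of these, 78.3%, 71.4% and 61.1% were within 250 bp of the TSS, and the median distance was 92 bp, 110.5 bp and 162 bp. Shared sites leaned upstream, with 41.3% downstream of the start, against 50.6% of TRIM24-only and 50.1% of TRIM28-only sites. Genes of small RNAs had a site centre within 250 bp for 1.73% of shared and 1.86% of TRIM24-only sites, and for 0.319% of TRIM28-only sites. The classes counted were small nuclear, nucleolar, micro, ribosomal and miscellaneous RNAs, without tRNAs. No share of genome tiles or of promoters was computed beside these values.

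**Figure D4:**
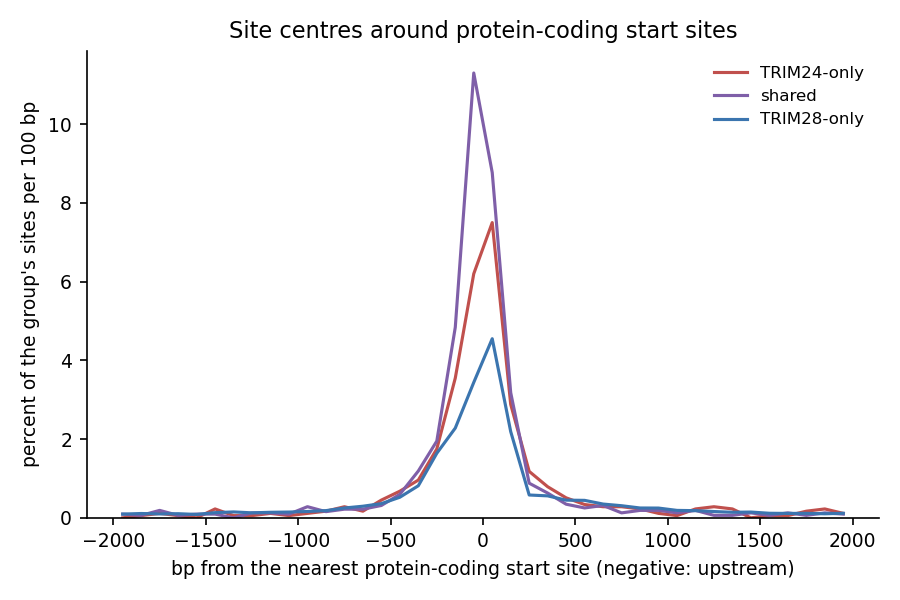
Percent of each group's sites per 100 bp (vertical axis) by distance from the nearest protein-coding TSS in bp (horizontal axis, negative upstream). The shared group has the highest peak, which spans the start and leans upstream. Of its sites within 2 kb of a start, 41.3% lie downstream of it.

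Bases around the centres followed the promoter shares. The median GC content of the 200 bp window was 52% for shared, 49% for TRIM24-only and 48% for TRIM28-only sites, against 40% for genome tiles and 63% for windows on protein-coding starts. Windows with at least 10 CpG made up 43.3%, 34.7% and 20.6% of the groups and 1.95% of the tiles. The order also held inside promoters, where the shares with at least 10 CpG were 75.9%, 70.0% and 55.0%. Among chromosomes, chromosome 19, which is rich in genes, had the most sites per Mb for both proteins, 3.45 for TRIM24 and 32.7 for TRIM28. Chromosome X had the fewest, 0.354 and 3.72. There 22 of 55 TRIM24 sites (40.0%) were shared, a share from few sites, of which 17 were pericentromeric in all. Chromosome 13, also with 55 TRIM24 sites, had 50.9% shared.

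The promoter motifs GFY and YY1 were more frequent at TRIM24-only and shared sites than at TRIM28-only sites. GFY matched in 2.36% of shared windows (1.89 to 2.95), 1.69% of TRIM24-only (1.19 to 2.41) and 0.382% of TRIM28-only windows (0.333 to 0.437), beside 0.0777% of tiles and 1.1% of TSS windows. YY1, a zinc-finger factor of many promoters, matched in 1.54%, 1.3% and 0.393% of the groups, beside 0.0824% of tiles and 2.18% of TSS windows. At TRIM24-only and shared sites nearly all matches lay in promoters, where the GFY shares were 4.45%, 3.82% and 0.945% and the YY1 shares 3.01%, 3.03% and 0.928%. The shares of TRIM28-only sites were thus the lowest inside promoters as well. The ETS motif, also one of promoters, was searched as AACCGGAAGT with no mismatch and was rare. It matched in 5 shared, 0 TRIM24-only and 29 TRIM28-only windows, or 0.157%, 0% (0 to 0.216) and 0.0532%. Tiles had 0.00575% and TSS windows 0.237%.

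CTCF, the factor of chromatin loop anchors, went the other way. It matched with at most 3 mismatches in 0.769% of TRIM28-only windows (0.699 to 0.846), 0.346% of shared windows (0.193 to 0.618) and 0.169% of TRIM24-only windows (0.0576 to 0.496), beside 0.0226% of tiles. Outside promoters and pericentromeres the shares were 0.894%, 0.463% and 0.364%, the last from 3 sites, and the intervals of the TRIM24-only and shared groups reached 1.06% and 1.01%, so there the intervals of all 3 groups overlapped.

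FOXA1, a factor that opens chromatin, matched without mismatch in 0.88% of shared, 0.733% of TRIM24-only and 0.849% of TRIM28-only windows, beside 0.259% of tiles. Outside promoters and pericentromeres it matched in 1.62% of shared (1.06 to 2.46), 1.09% of TRIM24-only (0.575 to 2.06) and 1.05% of TRIM28-only windows (0.947 to 1.16). There, with 1 mismatch allowed, the FOXA1 shares were 16.7% (14.7 to 18.8), 12.7% (10.6 to 15.2) and 12% (11.6 to 12.3), and in 100 bp windows without mismatch they were 1.31% (0.82 to 2.09), 0.848% (0.412 to 1.74) and 0.557% (0.485 to 0.64). Under these settings the interval of the shared sites lay above that of the TRIM28-only sites, while without mismatch in 200 bp the intervals overlapped. The ARE with at most 1 mismatch matched in 7 TRIM24-only (0.395%), 3 shared (0.0943%) and 177 TRIM28-only windows (0.325%). Tiles had 0.171% and TSS windows 0.235%. All 10 ARE matches at TRIM24 sites were in promoters, and the 2600 TRIM24 sites outside promoters held 0. This allows up to 0.378% of TRIM24-only and 0.241% of shared sites there, and it holds for this setting only. With 2 mismatches, 1.68% of TRIM24-only, 2.71% of shared and 3.34% of TRIM28-only sites outside promoters matched, beside 2.3% of tiles. AP-1, the motif of FOS and JUN factors, matched in 0.338% of TRIM24-only, 0.472% of shared and 0.648% of TRIM28-only windows, beside 0.171% of tiles. Both strands were searched, and matches of 2 motifs had bases in common in 2 windows.

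**Figure D5:**
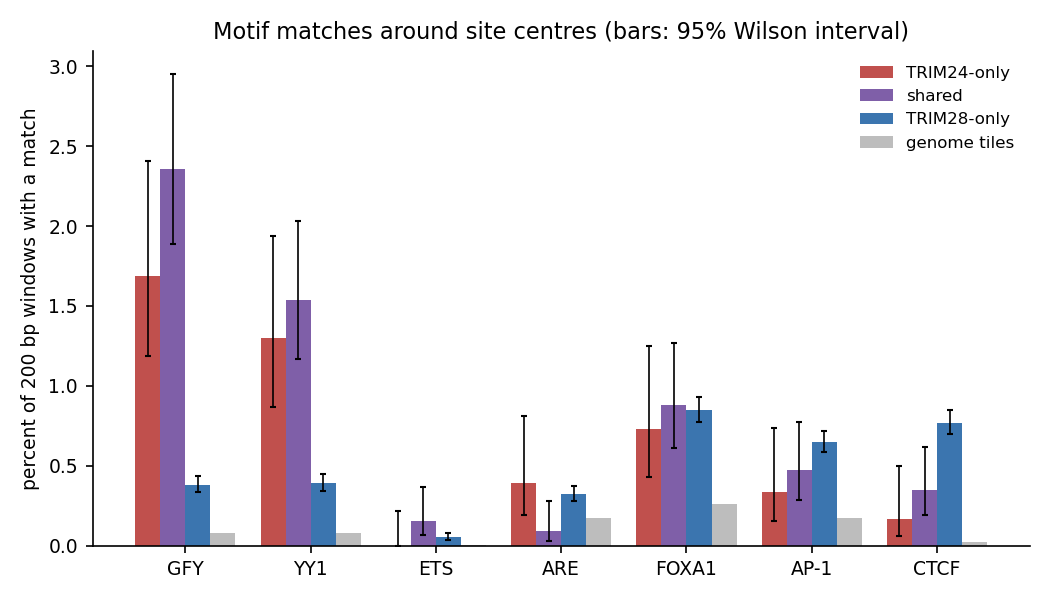
Percent of 200 bp windows with a match (vertical axis) for each motif in the 3 groups, with Wilson 95% intervals, and in genome tiles. GFY reaches 2.36% of shared windows against 0.382% of TRIM28-only windows, and CTCF 0.769% of TRIM28-only windows against 0.346% of shared ones.

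The last coding exons of zinc-finger genes carried TRIM28 sites and no TRIM24 site. These exons encode the arrays of zinc fingers. Of 513 genes whose symbol starts with ZNF, 165 (32.2%, 28.3 to 36.3) had a TRIM28-only site in the last coding exon, against 1.61% of the 19235 other protein-coding genes. No ZNF gene had a TRIM24-only or a shared site there, 0 of 513 in each group, which allows up to 0.743%. The other genes had such sites in 0.0624% and 0.13% of cases, and at those shares fewer than 1 of 513 genes would hold one. The median strength at the 165 genes was 9.9 normalized tags, above the 6.4 of all TRIM28-only sites.

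The strongest of these sites lay in ZNF75A at chr16:3367467-3367631, with 55.3 TRIM28 tags with ethanol and 52.7 with R1881. ZNF77 had 50.9 and 54.8 at chr19:2933575-2933739. ZNF174 had 46.9 and 40.8, and ZNF333 had 45.3 and 34.4. ZNF12 and ZNF200 had 31.4 and 31.0 with ethanol. None of the 6 had a TRIM24 site with R1881 either, and their nearest TRIM24 centre with ethanol was between 12.2 kb (ZNF75A) and 189 kb (ZNF333) away. The nearest one to ZNF75A lay at its own promoter, next to the start of TIGD7, where a shared site had 11.2 TRIM24 and 9.9 TRIM28 tags.

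At promoters of protein-coding genes, the strongest TRIM24-only site was that of PGK1, a glycolytic enzyme, at chrX:77359474-77359628. It had 148.2 TRIM24 tags with ethanol and 136.6 with R1881, and no TRIM28 site in either state. Further strong ones lay at NDUFS7, a subunit of respiratory complex I, with 54.3 tags, and 96.2 with R1881. HJV, an iron regulator, had 48.2 and 70.6, CXXC1, a CpG-binding protein, had 42.2, and KCTD2 had 38.8. The HJV and KCTD2 sites lay 1.36 kb and 1.31 kb from the protein-coding start that named them. CXXC1 and KCTD2 had TRIM28 sites with R1881, of 6.3 and 13.4 tags, so their place among TRIM24-only sites held for the ethanol samples only.

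Several strong shared promoter sites had more TRIM24 than TRIM28 tags. POLR3E, a subunit of RNA polymerase III, had 69.8 TRIM24 and 14.7 TRIM28 tags at chr16:22308459-22308613. KNL1, a kinetochore scaffold, had 61.2 and 14.3, CTNNA3, a catenin, had 62.9 and 11.1, and a second site at HJV had 64.6 and 13.5. Sites were named by the nearest protein-coding start, which lay 0.908 kb away for CTNNA3 and 1.01 kb away for HJV. Whether tRNA genes lay at these sites was not tested. WDR74 was even, with 37 and 41.8. The TRIM28 counts at these promoters lay above the median of 8.7 of shared promoter sites. The sites were chosen by the sum of both counts, which favours such values.

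The balance of both proteins at shared promoters ran from a log2 ratio of 2.75 to -1.96. RAB11A, a GTPase of recycling endosomes, was at the TRIM24 end with 40.5 TRIM24 and 6.0 TRIM28 tags. Next came PLXDC1 with 44.8 and 7.2, AGBL5 with 56.9 and 9.5, and H3-3B, a gene of histone H3.3, with 43.1 and 7.6. At the TRIM28 end RAB37 had 8.6 TRIM24 and 33.4 TRIM28 tags. SLC44A1, a choline transporter, had 7.8 and 29.0, PDE4DIP had 12.1 and 38.6, and VGLL4, a cofactor of TEAD factors, had 6.9 and 21.5. With R1881 the TRIM24 counts at RAB11A and RAB37 were 50.4 and 10.1, and the TRIM28 counts 11.9 and 29.5, so both kept their side. VGLL4 did not, with 15.5 TRIM24 and 14.8 TRIM28 tags with R1881, and AGBL5 and H3-3B had no TRIM28 site in that state.

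Strong TRIM28-only promoter sites lay at ABCA7, a lipid transporter, with 38.2 tags, TTLL1, a tubulin-modifying enzyme, with 32.2, PRSS38 with 30.2, FAM72A with 28.6 and ZNF761 with 28.2. All 5 also had a TRIM28 site with R1881, of 18.3 to 29.5 tags, and no TRIM24 site. Among the strong TRIM28-only sites away from promoters and pericentromeres, those picked out here after their values were seen lay in ZNF208 (77.9 tags, chr19:22130690-22130854) and near ZNF550 (73.2 tags, chr19:58077881-58078045).

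Of the 20090 protein-coding genes, 3.47% had a TRIM24-only site within 2 kb of a TSS, 7.53% a shared site and 52.8% a TRIM28-only site. As the nearest gene of a site anywhere, 6.9%, 12.2% and 72.3% were counted. Gene lists were read against these shares, and with this background most genes of each list had a TRIM28-only promoter site.

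Genes of the translation machinery had sites of every group more often than genes at large. Of the cytosolic and the mitochondrial ribosomal genes, 68.7% and 73.1% had a TRIM28-only promoter site, 9.09% and 8.97% a TRIM24-only one, and 83.8% and 84.6% a site of any group, against 57.0% of all genes. Of 99 genes with symbols of cytosolic ribosomal proteins, 20 (20.2%, 13.5 to 29.2) had a shared promoter site, among them RPS29 with 25 TRIM24 and 16.3 TRIM28 tags and RPL27 with 8.6 and 15.9. The list goes by symbol, so it also holds RPS6KL1 and RPS6KC1, which encode kinase-like proteins and had TRIM24-only sites. It holds both RPL17 and RPL17-C18orf32, each counted with a shared site. In all lists a site can count for several genes with nearby starts, while the intervals treat genes as separate. Of 78 mitochondrial ribosomal genes, 16 (20.5%, 13 to 30.8) had a shared promoter site, the strongest at MRPL24 with 19.8 and 5.6 tags. MRPL18 had a TRIM24-only site of 18.1 tags and also a TRIM28-only site of 5.6. Of 85 histone genes, 5 (5.88%, 2.54 to 13) had a shared site, the strongest at H4C8 with 32.7 and 9.5 tags, and 46 (54.1%) had a TRIM28-only site. These histone shares were near the 7.53% and 52.8% of all genes. Of 516 ZNF genes, 45 (8.72%, 6.58 to 11.5) had a shared and 357 (69.2%, 65.1 to 73.0) a TRIM28-only promoter site, so for shared sites they were near the share of all genes. The ZNF count includes the exon site of ZNF75A, which is within 2 kb of an annotated start. ZNF839 had the strongest shared site, with 43.1 TRIM24 and 13.5 TRIM28 tags.

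Of 32 androgen-regulated genes, 26 (81.2%, 64.7 to 91.1) had a TRIM28-only promoter site in hormone-starved cells, against 52.8% of all protein-coding genes. The 3 with a shared site (9.38%, 3.24 to 24.2) and the 1 with a TRIM24-only site (3.12%) were near the 7.53% and 3.47% of all genes. Among the shared sites, KLK2, a kallikrein protease, had 12.1 TRIM24 and 10.3 TRIM28 tags, and NDRG1, a stress-response gene, had 9.5 and 8.7. FKBP5, a chaperone of steroid receptors, had a TRIM28-only site of 10.7 tags, and TMPRSS2, a membrane protease, had one of 6.8. KLK3, which encodes prostate-specific antigen, had no promoter site in any group.

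Among 16 prostate lineage factors, 4 had a TRIM24-only promoter site (25%, 10.2 to 49.5), against 3.47% of all protein-coding genes. A shared one was found for 3 (18.8%, 6.59 to 43.0) and a TRIM28-only one for 10 (62.5%, 38.6 to 81.5), in part the same genes. The intervals of these 2 shares include the 7.53% and 52.8% of all genes. EHF had 11.2 at a TRIM24-only site and 11.2 with 15.1 at a shared site, GRHL2 had both kinds at 9.5 and at 8.6 with 8.7, and SPDEF had a TRIM24-only site of 8.6. FOXA1, GATA2 and HOXB13 had TRIM28-only sites of 5.6, 7.6 and 8.0 tags.

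Of 34 cell cycle genes, 27 (79.4%, 63.2 to 89.7) had a TRIM28-only promoter site, against 52.8% of all protein-coding genes. The 2 with a shared site (5.88%) and the 1 with a TRIM24-only site (2.94%) were near the 7.53% and 3.47% of all genes. KIF11, a spindle motor, had 8.6 TRIM24 and 11.1 TRIM28 tags, and MCM2, a subunit of the replication helicase, had 9.5 and 4.8. PCNA, the replication clamp, had a TRIM24-only site of 7.8 and also a TRIM28-only site of 8.7.

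Of the 17 listed partners of the proteins, counting TRIM24 and TRIM28, 6 had a TRIM24-only promoter site (35.3%, 17.3 to 58.7). A shared one was found for 2 (11.8%, 3.29 to 34.3) and a TRIM28-only one for 16 (94.1%, 73.0 to 99.0). A site of any group was found for the same 16 genes. All 6 genes with a TRIM24-only site thus also had a TRIM28-only site within 2 kb of a start, so their promoters were not free of TRIM28. Of all protein-coding genes, 3.47%, 7.53% and 52.8% had such sites. CBX1, an HP1 protein, had a shared site of 8.6 TRIM24 and 15.5 TRIM28 tags, and the other shared site was at HDAC1, a histone deacetylase. The TRIM24 promoter had a TRIM24-only site of 15.5 tags and a TRIM28-only site of 7.2. The TRIM28 promoter had 8.6 and 8.7. The site at the promoter was the only TRIM24 site called in the TRIM24 gene with ethanol, and its centre lay in an exon. With R1881 the TRIM24 list has 3 sites in the gene, all 3 with their centre in an exon. The part of the introduced HA-TRIM24 sequence in these counts was not tested.

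The R1881 samples, which took no part in forming the groups, held many of the shared sites. Of the 3181 shared sites, 41.0% (39.3 to 42.7) overlapped sites of both proteins with R1881, 68.5% a TRIM28 site and 51.7% a TRIM24 site, and 20.8% overlapped neither. TRIM24-only sites overlapped a TRIM24 site in 36.9% (34.7 to 39.2) and a TRIM28 site in 25.4% (23.5 to 27.5), with 50.9% at neither. TRIM28-only sites overlapped a TRIM28 site in 35.1% and a TRIM24 site in 5.85%, with 62.6% at neither. Thus TRIM24 was found again more often where TRIM28 was also present with ethanol. The R1881 lists differ in length from the ethanol lists, 9006 and 34152 sites, and the part of treatment, depth and chance in these shares was not tested.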

How the data were processed

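ChIP-seq of HA-TRIM24 and TRIM28 in LNCaP cells is given as 1 site list a sample. The authors aligned reads to hg19 with BWA 0.6.1 and called sites in each sample separately with HOMER 4.1, as the submitters' processing notes and the file headers record. Per the file headers the false discovery rate was set to 0.001. Sites also had to exceed their own 10 kb neighbourhood 4-fold in density at a Poisson p-value no higher than 0.0001, and no input library was given. The deposited signal, called normalized tags here, is the tag count per 10000000 tags of the library. The deposited score, the focus ratio (a fraction) and the clonal fold (a ratio) entered no comparison, and the deposited local fold and p-value served as alternatives. Total tags were 11606880 and 25145171.

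From the lists, overlaps were counted on chromosomes 1 to 22 and X, positions were taken from GENCODE release 44 on GRCh37, and motif letters from the study's motif table were searched in 200 bp windows, with 200 bp tiles of the genome and windows on protein-coding starts as background. The promoter class took precedence over UTRs, exons, introns and intergenic sequence. Shares have Wilson 95% intervals, and no test was made. Named sites are the 6 strongest of each group, the 6 strongest near a protein-coding TSS, the 4 shared promoter sites with the highest and the 4 with the lowest ratio, the 6 ZNF genes with the strongest exon site, up to 5 genes a list by count, and sites in TRIM24 and TRIM28. Other list members, TIGD7, ZNF208 and ZNF550 were named after their values were seen. The groups and gene lists were chosen with earlier results of these data known. Alternatives changed the overlap, the strength asked of a site, promoters and TSSs, chromosomes, motif windows and mismatches, and a floor of 9 TRIM24 tags in normalized units and promoter shares without pericentromeres were added after seeing the data. Repeat content was not computed, and some genes that the rule names are not reported here. Code was tested on simulated sites and planted motifs. Python 3.11.15, numpy 2.4.6, pandas 2.3.3, scipy 1.17.1, numba 0.67.0 and matplotlib 3.10.9 were used.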

Additional observations from a re-analysis of the deposited data

Results flagged for a closer look

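Sites outside chromosomes 1 to 22 and X took no part in the comparison. The TRIM24 list holds 278 of them, with a median of 25 normalized tags, and 56.8% overlapped a TRIM28 site. The TRIM28 list holds 511, with a median of 8.4 normalized tags, and 30.9% overlapped a TRIM24 site. They are given because data outside the comparison carried signal, and no explanation was tested.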

How the results depend on the processing

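The share of TRIM24 sites with a TRIM28 site, 64.2%, and that of TRIM28 sites with a TRIM24 site, 5.51%, were 50.4% and 4.33% with 50% of the TRIM24 site covered, 75.5% and 6.79% with centres at most 500 bp apart, 57.5% and 7.8% with TRIM28 sites at or above the lowest TRIM24 count, 21.6% for both with equal numbers of sites, 42.2% and 12.5% with the floor of 9 TRIM24 tags, and 61.8% and 5.77% at a local p of at most 1e-06. The TRIM28 share was 5.74% on all sequences and 5.11% without pericentromeric sites. The log2 difference of medians, shared minus unshared, was 0.15 for TRIM24 and 0.24 for TRIM28 on the local fold, 0.4 for TRIM28 with the lowest TRIM24 count as floor, and 0.12 and 0.66 outside promoters. The promoter shares of TRIM24-only, shared and TRIM28-only sites were 38.4%, 46.1% and 26.7% within 1 kb, 30.6%, 37.9% and 22.4% with protein-coding starts, 36.3%, 43.5% and 35.7% in the stronger 50%, and 30.6%, 53.0% and 31.6% with centres at most 500 bp apart. They were 46.2% for TRIM24-only and 34.3% for TRIM28-only sites with the 9-tag floor, 35.0% for TRIM28-only sites with the lowest TRIM24 count as floor, and 47.2% for TRIM24-only and 54.4% for shared sites without pericentromeres. Shared sites called for both proteins with R1881 were 46.2% with centres at most 500 bp apart, 37% in promoters and 44.9% outside them. With the 9-tag floor, 106 ZNF genes had a TRIM28-only site in the last coding exon. Changed motif settings moved 34 single shares beyond their intervals and 8 not, while shared sites exceeded TRIM28-only sites for 3 to 5 motifs of 7. No paired analysis was possible because each protein has 1 sample. At these depths, TRIM24 binding below about 7.75 and TRIM28 binding below about 4.77 normalized tags would mostly not be listed.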
